A study of Rattus norvegicus with 2 samples.

Results

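The miR-99/100, miR-125 and miR-10 families were followed in rat carotid artery on 2 miRNA arrays, 1 of artery 10 days after balloon injury and 1 of artery without injury. Both came from male Sprague-Dawley rats of about 250 g. In this injury model a balloon catheter pulled through the vessel removes the inner cell layer, and over the following days smooth muscle cells build up a thickened intima. The 8 miRNAs were taken by name from the 350 rat miRNAs on the array, leaving out names that end in an asterisk, which mark the other arm of a hairpin. They are rno-miR-99a, rno-miR-99b, rno-miR-100, rno-miR-125a-5p, rno-miR-125a-3p, rno-miR-125b-5p, rno-miR-10a-5p and rno-miR-10b. Each group held 1 array, and the sources used here do not say how many rats were behind each. No value below therefore has a replicate error, no test was run, and a difference between the arrays cannot be told apart from a difference between any 2 such samples.

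A miRNA is cut as a short RNA from a hairpin precursor and lowers the output of messenger RNAs that pair with its seed, the bases from 2 to 8. The miR-99/100 family is known in human cells for repressing the growth kinase mTOR. The miR-125 family is the vertebrate form of lin-4, which times development in Caenorhabditis elegans, and miR-125b is known in human and zebrafish cells for repressing p53. The miR-10 genes lie in the Hox clusters and act on Hox messenger RNAs, and miR-10a is known for restraining inflammatory NF-κB signalling in human endothelial cells. In vertebrates a miR-99 or miR-100 gene, a let-7 gene and a miR-125 gene lie together in clusters that arose by duplication, so that members of these families can be made from 1 primary transcript.

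The mature sequences show how near to each other the families are, which matters for probes that read them by hybridisation. RefSeq's table for the rat assembly GRCr8 held the mature sequence of 7 of the 8 members, all but rno-miR-99a. They are given 5′ to 3′ with the seed in capitals.
rno-miR-99b: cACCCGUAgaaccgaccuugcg
rno-miR-100: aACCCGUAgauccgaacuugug
rno-miR-10a-5p: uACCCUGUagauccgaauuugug
rno-miR-10b: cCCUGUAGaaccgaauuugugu
rno-miR-125a-5p: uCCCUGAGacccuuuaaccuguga
rno-miR-125b-5p: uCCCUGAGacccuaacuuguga
rno-miR-125a-3p: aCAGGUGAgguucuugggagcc

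These 7 sequences held 5 different seeds. miR-99b and miR-100 shared the seed ACCCGUA, and miR-125a-5p and miR-125b-5p shared CCCUGAG and their first 13 bases. Aligned without gaps, miR-10a-5p and miR-10b matched at 20 of 21 bases, the exception being U12A (miR-10a-5p's base, its position from the 5′ end of miR-10a-5p, then miR-10b's base). The annotated miR-10b begins 2 bases further along that alignment, so that its seed as annotated, CCUGUAG, differs from the ACCCUGU of miR-10a-5p. miR-100 and miR-10a-5p come from different families, yet matched at 19 of 22 aligned bases. miR-99b and miR-100 of 1 family matched at 18 of 22, with the substitutions C1A, A11U, C16A and C21U (positions in miR-99b). Whether the array's probes separate such near neighbours was not tested.

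The genes fall in 5 places of that assembly, all on the plus strand. The mature miR-99b lies at chr1:67350070-67350091 and miR-125a-5p at chr1:67350689-67350712, with the let-7e gene between them and all within the span of the protein-coding gene Spaca6. miR-100 lies at chr8:50798307-50798328, followed by let-7a-2 and then the miR-125b-1 gene, within the span of Mir100hgl. The entry for miR-125b-5p lies at chr11:29732588-29732609, after the miR-99a and let-7c-1 genes. miR-10a-5p lies at chr10:81779730-81779752, between Hoxb5 and Hoxb4, and miR-10b at chr3:80035886-80035907, within the span of Hoxd4. The tables used here do not place these genes in exons or introns of those hosts.

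On the arrays as a whole 158 miRNAs were measured on both, meaning that the deposited flag was 1 on each, and all 8 members were among them. Each log2 signal was scaled by subtracting its array's 75th percentile over those 158, and the log2 ratio is injured minus uninjured. The median log2 ratio of the 158 was 0.14, and 55 of them (34.8%) had a negative ratio. All 6 control features detected on both arrays were brighter on the injured array, with a median unscaled log2 ratio of 0.50. The smooth muscle miRNAs miR-143 and miR-145, which mark the tissue, were measured on both arrays with a summed signal of 14466 on the injured and 17749 on the uninjured array. All 4 leukocyte markers were measured on both arrays, with a summed signal of 486 on the injured and 213 on the uninjured array. Of these, miR-142-5p, miR-142-3p and miR-223 had log2 ratios of 2.49, 1.88 and 1.67, and miR-150 had -0.50. The 2 red-cell markers summed to 124.6 on the injured and 677 on the uninjured array, and the 2 arms of the endothelial miR-126 to 615 on the injured and 626 on the uninjured array. Of the 3 neuronal markers none was measured on the injured array, with a summed signal of 6.83, and all 3 were on the uninjured array, with 50.3. None of the 5 epithelial markers was measured on either array, nor was the liver miR-122. Of the 3 striated muscle markers 1 was measured, miR-499, with a log2 ratio of -0.29. The muscle miRNAs miR-1, miR-133a and miR-133b, which were not on that list, had lower log2 ratios of -1.58, -1.09 and -1.03. In whole artery a smaller number of cells of a type and less RNA per cell cannot be told apart, and the part of cell composition in the values below was not tested.

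Under the scaling used, no member of the families differed by 2-fold between the arrays. With the control features aligned 1 member did, miR-99a, with a log2 ratio of -1.01. The count of members at least 2-fold higher in the injured artery was 0, where 12.7% of the 158 miRNAs were, and the count at least 2-fold lower was 0, where 3.8% were. At 1.5-fold, 1 member was higher, miR-125a-3p, where 25.3% of the 158 were, and none was lower, where 10.1% were. For miR-125a-3p this held only under the scaling used. Its highest log2 ratio under the 10 alternatives was 0.52, which is below 1.5-fold. That none was lower also held only under some scalings. With the arrays scaled by their medians miR-99a had -0.86, miR-10a-5p -0.73 and miR-100 -0.72, each more than 1.5-fold lower. With the control features aligned miR-125b-5p, at -0.62, passed 1.5-fold as well. The share of the 158 past 1.5-fold is not given here under these scalings. Under the scaling used, 4 log2 ratios were above 0 and 4 below, with a median of 0.04 and a range from -0.42 to 0.61. That even split depended on the scaling. When the arrays were scaled by their medians, by the 75th percentile over all miRNAs or by the control features, 1 member was above 0 and 7 were below, with medians of -0.41, -0.46 and -0.56. The medians of all 158 were then -0.30, -0.36 and -0.45. The members' median differed from these by -0.10 each time, as it did under the scaling used. With quantile normalization, which works by ranks, none was above 0, 6 were below and the median was -0.27. That of the 158 was then -0.03. Across all 158 the range was from -2.47 to 2.57.

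**Figure D1:**
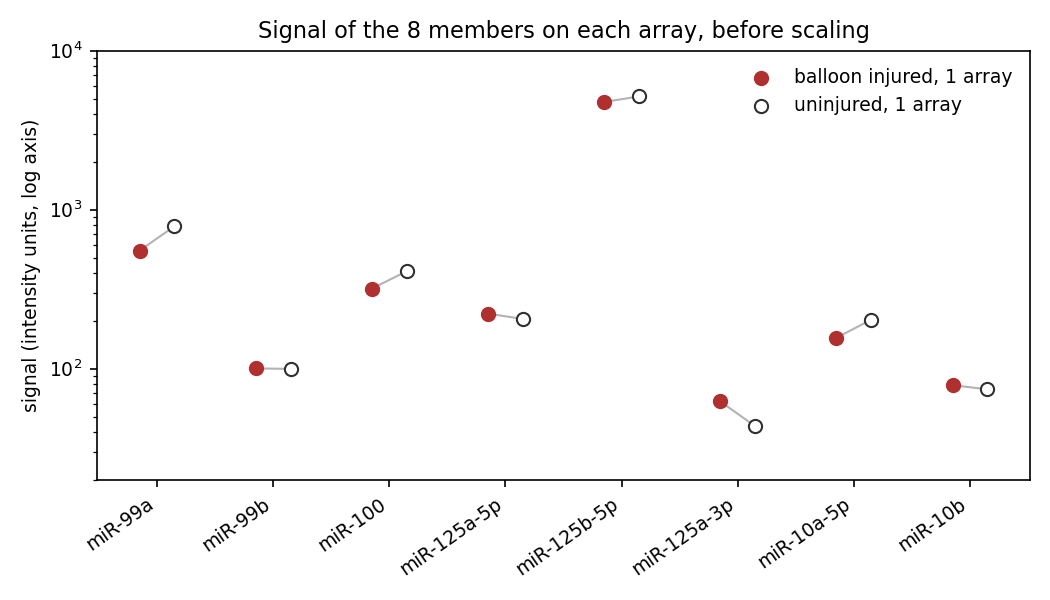
Signal of each of the 8 members in intensity units before scaling, on a log axis, with the injured array filled and the uninjured array open (1 array each, so no error bars). miR-99a, miR-100 and miR-10a-5p were dimmer on the injured array by the widest steps, and miR-125a-3p was brighter there.

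In the miR-99/100 family miR-99a and miR-100 had lower levels in the injured artery, and miR-99b was close to equal under the scaling used. miR-99a had a signal of 553 in the injured artery and 787 in the uninjured artery, a log2 ratio of -0.42, or 1.34-fold lower. It had the lowest ratio of the 8 members and the 23rd lowest of the 158. miR-100, known in mouse for repressing mTOR in vascular cells, had a signal of 319 in the injured artery and 410 in the uninjured artery, a log2 ratio of -0.27. miR-99b had 100.4 in the injured artery and 99.7 in the uninjured artery, a log2 ratio of 0.10. The family's median log2 ratio was -0.27. The ratio of miR-99a lay 0.52 below that of miR-99b and 0.15 below that of miR-100, differences that no uniform scaling of an array can move. Normalization by ranks, which gives both arrays the same distribution of signals, did move them: miR-99a then lay 0.17 below miR-99b, and miR-100 lay 0.07 above it.

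In the miR-125 family both 5p members were nearly as bright on 1 array as on the other under the scaling used. With the control features aligned their log2 ratios were -0.62 for miR-125b-5p and -0.39 for miR-125a-5p. miR-125b-5p had a signal of 4763 in the injured artery and 5157 in the uninjured artery, a log2 ratio of -0.03. It made up 4.89% of the summed miRNA signal on the injured array and 5.40% on the uninjured array, a share that also depends on its probe. miR-125a-5p had 222 in the injured artery and 206 in the uninjured artery, a log2 ratio of 0.20. The members of the pair share their seed, and their ratios differed by 0.23, or 0.06 after normalization by ranks. The 3p arm of the miR-125a hairpin, which has another seed, had the highest ratio of the 8: rno-miR-125a-3p had a signal of 62.3 in the injured artery and 43.5 in the uninjured artery, 1.52-fold higher. Its signals were well above the highest signal that was not flagged as detected, 5.98 on the injured and 8.84 on the uninjured array. After normalization by ranks its log2 ratio was 0, so a higher level is not shown under every scaling.

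In the miR-10 family the log2 ratios had opposite signs under the scaling used, but not under every alternative. miR-10a-5p had a signal of 156 in the injured artery and 203 in the uninjured artery, a log2 ratio of -0.29. miR-10b had 78.8 in the injured artery and 74.2 in the uninjured artery, a log2 ratio of 0.18. The ratio of miR-10a-5p lay 0.47 below that of miR-10b, and 0.24 below it after normalization by ranks, although their mature sequences match at all but 1 aligned base. miR-10b was negative under 5 of the 10 alternatives, among them normalization by ranks (-0.28) and alignment of the control features (-0.42), so both members were then lower in the injured artery. Of the other miRNAs of the Hox clusters, miR-196a, miR-196b and miR-196c were measured on neither array, and miR-615 was not among the array's names.

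Set in order from lowest to highest log2 ratio the members ran miR-99a, miR-10a-5p, miR-100, miR-125b-5p, miR-99b, miR-10b, miR-125a-5p and miR-125a-3p. The neighbours miR-10a-5p and miR-100 lay 0.02 apart, as did miR-10b and miR-125a-5p. The widest step, 0.41, lay between miR-125a-5p and miR-125a-3p, arms of 1 hairpin. With 1 array per group there is no spread against which these steps can be set. Between families, the median of miR-99/100 lay 0.36 below that of miR-125 and 0.22 below that of miR-10, and the median of miR-125 lay 0.14 above that of miR-10. After normalization by ranks the median of miR-99/100 lay 0.30 below that of miR-125 but 0.07 above that of miR-10, and the median of miR-125 lay 0.37 above that of miR-10. The members of miR-99/100 differed from each other by up to 0.52 and those of miR-10 by 0.47, and after normalization by ranks by 0.24 in each of these families. Whether members or family medians lay further apart therefore depended on the scaling.

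**Figure D2:**
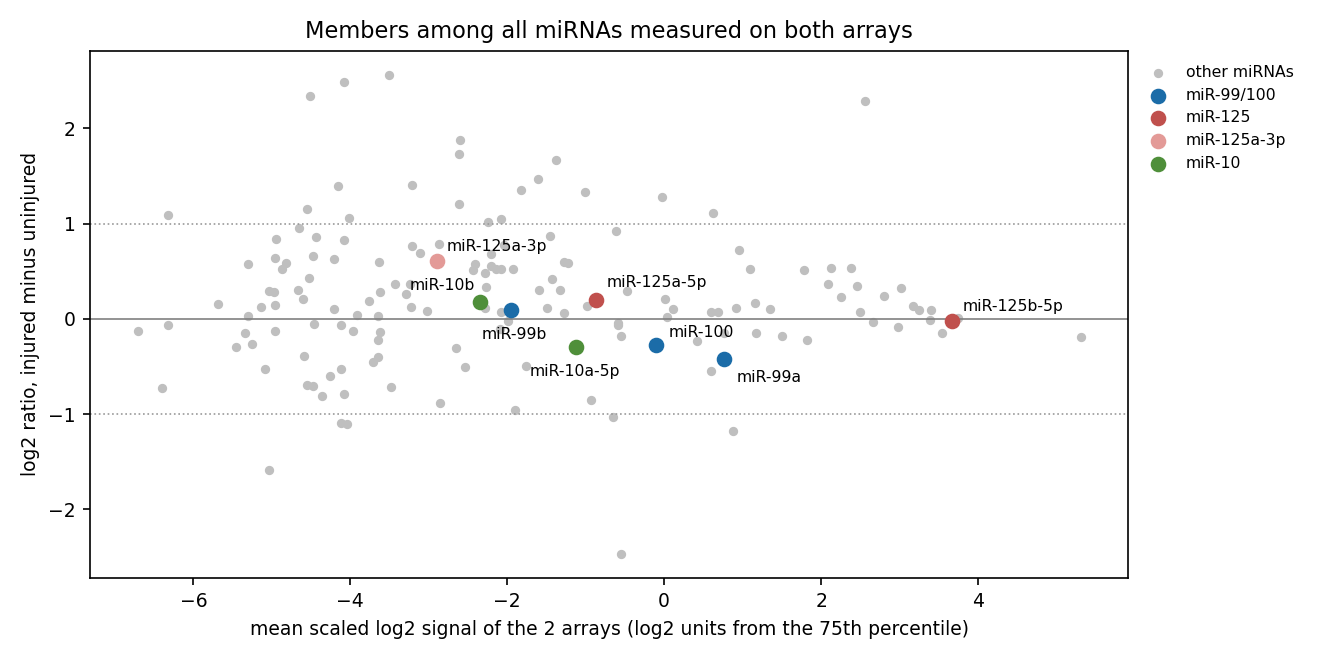
Log2 ratio, injured minus uninjured, against the mean scaled log2 signal for the 158 miRNAs measured on both arrays, with the members coloured by family and dotted lines at 2-fold. All 8 members lie inside the 2-fold lines, from -0.42 for miR-99a to 0.61 for miR-125a-3p.

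By place in the order of brightness, 7 of the 8 members stood lower on the injured array and miR-125a-5p kept its place, while 48.7% of the 158 miRNAs stood lower. miR-99a was 34th brightest of the 158 on the injured array and 27th on the uninjured array. miR-10a-5p was 60th on the injured and 50th on the uninjured array. miR-99b, with a ratio just above 0, was 74th on the injured and 65th on the uninjured array. miR-10b likewise was 87th on the injured and 77th on the uninjured array. The remaining moves were smaller. miR-100 was 42nd on the injured and 39th on the uninjured array, and miR-125b-5p was 4th on the injured and 3rd on the uninjured array. miR-125a-3p, with the highest ratio of the 8, was 91st on the injured and 90th on the uninjured array. A place depends on the probe as well as the RNA, and it moves when other miRNAs move. Under the scaling used, 103 of the 158 had a positive log2 ratio, and 20 of them were at least 2-fold higher. Why the members stood lower was not tested.

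Under the scaling used, the split of ratios within families followed a stretch of 7 letters in the 4 printed sequences of miR-99/100 and miR-10, a pattern noticed after the values were seen. The letters gauccga occur in miR-100 and miR-10a-5p, with log2 ratios of -0.27 and -0.29, and gaaccga in miR-99b and miR-10b, with 0.10 and 0.18. Each stretch, read on the miRNA strand alone, occurs in 2 of the 693 mature names of the table (0.289%), which are those members. The stretch was picked by these ratios, so its rarity says nothing about the pattern. The first base sorts the 4 sequences in the same way, being c in miR-99b and miR-10b only. miR-99b was negative under 7 of the 10 alternatives and miR-10b under 5, as miR-100 and miR-10a-5p were under all 10. After normalization by ranks miR-100 also stood above miR-99b. The split in direction is therefore not shown under every scaling. No cause of this split was tested.

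The let-7 miRNAs of the same clusters were set beside the members. Under the scaling used, miR-99a and miR-100 lay below their let-7 partners and miR-99b close to its own, a contrast that normalization by ranks did not keep. In the miR-99a cluster, let-7c had a signal of 5080 in the injured artery and 5370 in the uninjured artery, a log2 ratio of 0.01. miR-99a lay 0.43 below it, whereas miR-125b-5p lay 0.03 below it. In the miR-100 cluster, let-7a had 3939 in the injured artery and 4207 in the uninjured artery, a log2 ratio of -0.01, and miR-100 lay 0.27 below it. In the cluster of miR-99b and miR-125a, let-7e had 622 in the injured artery and 629 in the uninjured artery, a log2 ratio of 0.07. The ratios of the 3 miRNAs of that cluster lay within 0.13 of each other, against ranges of 0.43 in the miR-99a cluster and 0.27 in the miR-100 cluster. After normalization by ranks miR-99a lay 0.50 below let-7c, miR-99b 0.48 below let-7e and miR-100 0.13 below let-7a. let-7a, let-7c and miR-125b are each made from more than 1 gene, so the signal on the array need not come from the cluster with which it is set here.

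The other arms of the hairpins had low signals or were not measured. miR-99a* had a signal of 9.63 in the injured artery and 10.03 in the uninjured artery, a log2 ratio of 0.03. miR-99b* had 15.2 in the injured artery and 10.3 in the uninjured artery, 1.56-fold higher. Both were measured on both arrays, although close to the highest undetected signals. The mature sequences of these arms share the seed AAGCUCG.
rno-miR-99a*, RefSeq's rno-miR-99a-3p: cAAGCUCGuuucuaugggucug
rno-miR-99b*, RefSeq's rno-miR-99b-3p: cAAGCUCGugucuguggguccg

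miR-125b* was flagged as detected on the injured array only, with a signal of 3.80 in the injured artery and 4.10 in the uninjured artery, so no fold is given. miR-125b-3p and miR-10a-3p were measured on neither array. In each of the 3 hairpins with both arms measured on both arrays the dimmer arm had the higher ratio, by 0.45 for miR-99a, 0.54 for miR-99b and 0.41 for miR-125a. In the other 15 hairpins with both arms measured the dimmer arm had the higher ratio in 4, with a median difference of -0.32 and a range from -1.19 to 0.61. This comparison was chosen after the values were seen. After normalization by ranks the differences were 0.12 for miR-99a, 0.54 for miR-99b and 0 for miR-125a. With 16 intensity units added before scaling, which damps differences between low signals, they were 0.47 for miR-99a, 0.24 for miR-99b and 0.29 for miR-125a.

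**Figure D3:**
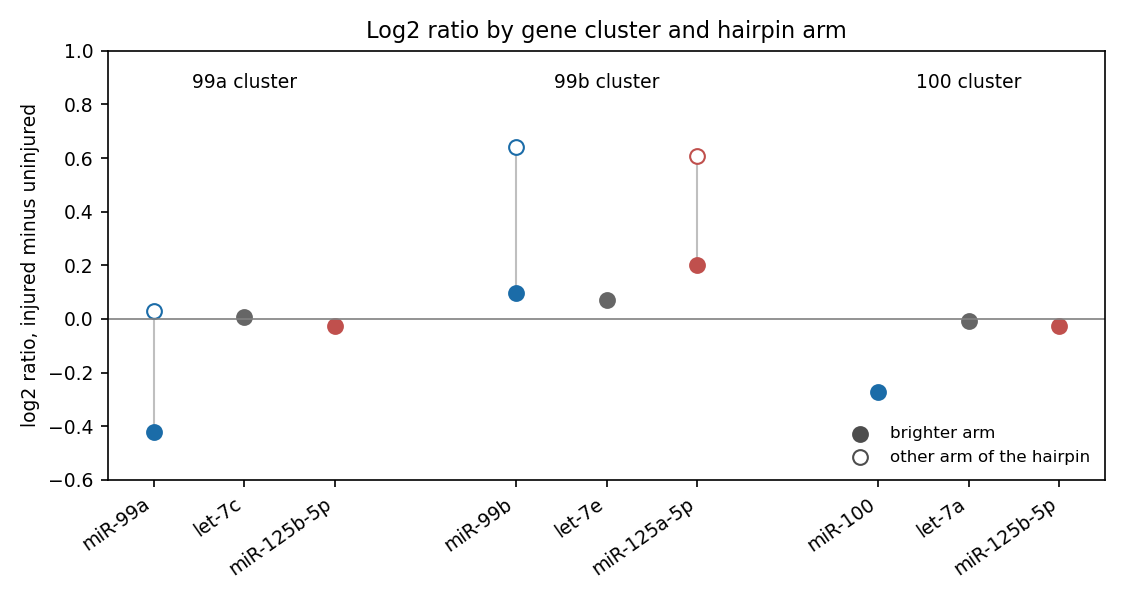
Log2 ratio, injured minus uninjured, of the brighter arm (filled) and, where measured on both arrays, the other arm (open) for the miRNAs of the 3 clusters, with miR-125b-5p drawn in both clusters that can make it. Under the scaling used, miR-99a and miR-100 lie below their let-7 partners, and the 3 other arms lie above their brighter arms, whereas after normalization by ranks miR-99b also lay below let-7e and the arms of miR-125a were level.

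The miRNAs most like the brightest member of each family were sought by the smallest Euclidean distance in scaled log2 signal over the 2 arrays, among miRNAs outside the 8. Nearest to miR-99a was miR-497 at a distance of 0.19, with a log2 ratio of -0.15. Next came the smooth muscle miR-145 at 0.25, with a log2 ratio of -0.55, and let-7e at 0.36. Nearest to miR-125b-5p were let-7c at 0.11, miR-23b at 0.21 and miR-24 at 0.40. Nearest to miR-10a-5p were miR-181a at 0.33, miR-30d at 0.36 and miR-338 at 0.48. With only 2 arrays this measure mostly finds miRNAs of like brightness: the 3 near miR-10a-5p had log2 ratios of 0.06, 0.13 and -0.85, on both sides of its -0.29.

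**Figure D4:**
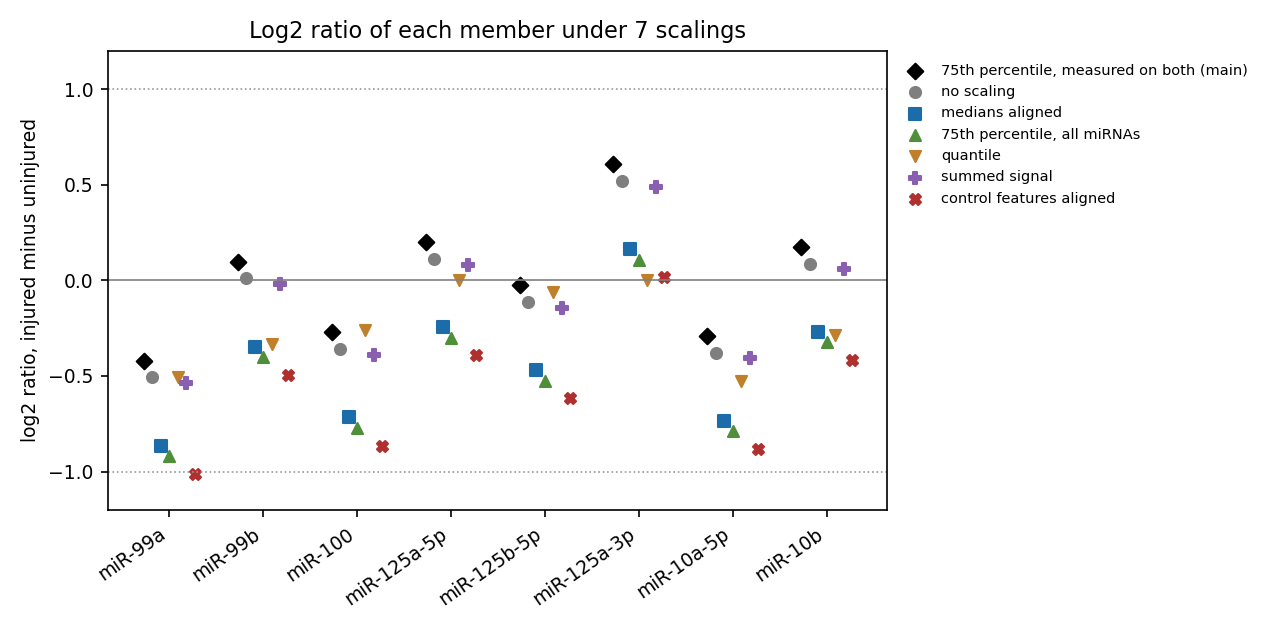
Log2 ratio, injured minus uninjured, of each member under 7 ways of scaling the arrays, with dotted lines at 2-fold. miR-99a, miR-100, miR-125b-5p and miR-10a-5p lie below 0 under all 7, miR-99b, miR-125a-5p and miR-10b change side, and miR-125a-3p lies at or above 0.

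The direction of 4 members was the same under every scaling tried, and that of the others was not. miR-99a, miR-100, miR-10a-5p and miR-125b-5p had a negative log2 ratio under the scaling used and under all 10 alternatives, reaching -1.01 for miR-99a with the control features aligned. miR-99b was positive under 4 of these 11 settings, and miR-125a-5p and miR-10b under 6 each. miR-125a-3p was positive under 10 and at 0 under normalization by ranks. In these counts the unscaled ratio and the ratio of the deposited value table stand as separate settings, although they gave the same values. Every uniform alternative scaling moved the ratios of all miRNAs down together, by 0.09 to 0.59 in the median, so a negative ratio could not change sign under those.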

How the data were processed

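Total RNA of injured and of uninjured carotid artery, 1 array each, was extracted with Trizol and carried Cy3 from Agilent's miRNA labelling kit, per the labels' protocols. Each deposited array file holds a linear signal intensity and a flag of 0 or 1 per feature, per the file headers; the sources used here give no background subtraction, scanner software or normalization. The flag was read as detection, since all negative controls had 0. The authors' deposited value table holds a linear ratio, which equalled injured over uninjured intensity for the 349 names it shares with the arrays.

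The log2 intensities were scaled at the 75th percentile (377 on the injured and 401 on the uninjured array) of the 158 miRNAs measured on both arrays, which raised every log2 ratio by 0.09. Fold changes of 2 and 1.5 served as descriptive thresholds. The named miRNAs were the 8 members, their other arms, let-7 cluster partners, Hox cluster miRNAs and the 3 nearest miRNAs per family. Members and lists were chosen with earlier results of these data known. The number of arrays limits the precision. Python 3.11.15, numpy 2.4.6 and pandas 2.3.3 were used. The calculation was tested on a copy of the uninjured array with set fold changes put in and no noise. That test does not give the error of ratios as small as those of most members.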

Additional observations from a re-analysis of the deposited data

How the results depend on the processing

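No paired analysis was possible because each group held 1 array. With the control features aligned, every member moved by 0.59 and the log2 ratios were -1.01 for miR-99a, -0.49 for miR-99b, -0.86 for miR-100, -0.39 for miR-125a-5p, -0.62 for miR-125b-5p, 0.015 for miR-125a-3p, -0.88 for miR-10a-5p and -0.42 for miR-10b. The medians were then -0.86 for miR-99/100, -0.50 for miR-125, -0.65 for miR-10 and -0.56 for all 8 members. That of the 158 miRNAs was then -0.45. With that scaling 1 member, miR-99a, was at least 2-fold lower. The log2 ratio of miR-125a-3p was 0 with quantile normalization. At 1.5-fold in place of 2-fold, 1 member was higher, miR-125a-3p, and only under the scaling used. None was 1.5-fold lower under that scaling, but miR-99a, miR-10a-5p and miR-100 were with the arrays scaled by their medians. The count at 2-fold was 0 in both directions under the other alternatives. Of the 158 miRNAs, 20 passed 2-fold upwards and 6 downwards; with the control features aligned these counts were 7 and 23, and with quantile normalization 12 and 11. A stricter floor for miRNAs measured on 1 array could not be applied, as all members were measured on both. The cause of these shifts was not tested.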
